A study of Mus musculus with 96 samples.

Results

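Among primary osteoblast cultures from the Collaborative Cross, a panel of recombinant inbred mouse strains, 6 libraries with neighbouring numbers in their sample titles had low levels of glycolysis transcripts, and they are compared here with libraries of the same strains that carry other numbers. The 6 libraries are Farber_126 and Farber_128 of strain CC008, Farber_125 of CC015, Farber_139 of CC023, Farber_135 of CC028 and Farber_129 of CC030, and they are called the run here. The same-strain libraries are Farber_209 and Farber_211 (CC008), Farber_44, Farber_165 and Farber_167 (CC015), Farber_177 (CC023), Farber_169 (CC028) and Farber_207 (CC030), which makes 8. The run is 7 of the 96 samples of the series as deposited, and 6 of 95 after the repeat sequencing of Farber_129 was averaged with the first. The labels give a strain for each sample and no treatment, sex, litter, culture date or sequencing date, and what the title numbers stand for is not given, so "run" names a stretch of numbers and nothing more.

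All 42 strains were handled by one protocol. Calvaria (skull bone) of pups 3 to 5 days old were digested, and the released cells were plated, grown for 48 h and kept for 10 days under mineralizing conditions (ascorbic acid and a phosphate donor), so the groups share genotype within a strain, age and medium as far as the labels say. Total RNA depleted of ribosomal RNA was sequenced with a stranded kit. Values are length-normalised transcript shares (TPM) summed per gene and scaled between libraries, and the sequencing depth is unknown because TPM keeps none. Such bulk cultures hold more than osteoblasts, and fewer cells of a type and less RNA per cell cannot be told apart in them.

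The run was chosen by its low glycolysis values. Every gene of the comparison with the same-strain libraries therefore counts as used by the choice, and that comparison is described without a test. A gene is called lower or higher in the run when its difference, fitted with strain as a block, is at least 1.5-fold and has the same direction in all 5 strains, where CC023, CC028 and CC030 give 1 library against 1. A separate test used CC043, whose 2 libraries Farber_132 and Farber_134 lie within the number range of the run, and which the choice did not use. CC043 has no library with a number elsewhere, so its strain and the number range cannot be told apart.

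As background, glycolysis splits glucose taken up by transporters such as Slc2a1 into pyruvate, which is reduced to lactate by Ldha and exported by Slc16a3 or oxidised in mitochondria. Osteoblasts are known for a high rate of aerobic glycolysis. Many of its genes are targets of the hypoxia-inducible factor HIF1, which binds the core sequence ACGTG. Txnip and Arrdc4, relatives of the arrestins, restrain glucose uptake and are induced by the glucose sensor MondoA (Mlxip) with its partner Mlx at paired E-boxes. Atf4 is the transcription factor of the integrated stress response and drives genes of serine and amino acid supply.

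Promoters are shown for Slc2a1, Slc16a3, Eno2 and Pfkl, glycolysis genes with large lower differences, and for Txnip and Arrdc4, to let the core sequences of these factors be seen where they occur. Each is the 250 bases before the RefSeq start on GRCm38.p6, written 5′ to 3′ along the gene's strand. Capitals mark ACGTG or its reverse complement CACGT, and in Txnip its known pair of E-boxes, CACGAG followed after 5 other bases by CACGAG again.
Slc2a1, chr4:119108495-119108744, + strand: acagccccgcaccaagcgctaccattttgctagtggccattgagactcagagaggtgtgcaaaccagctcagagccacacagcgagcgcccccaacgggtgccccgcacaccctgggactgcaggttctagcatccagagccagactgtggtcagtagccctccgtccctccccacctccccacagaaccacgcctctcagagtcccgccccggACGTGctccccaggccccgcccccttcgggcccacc
Slc16a3, chr11:120948817-120949066, + strand: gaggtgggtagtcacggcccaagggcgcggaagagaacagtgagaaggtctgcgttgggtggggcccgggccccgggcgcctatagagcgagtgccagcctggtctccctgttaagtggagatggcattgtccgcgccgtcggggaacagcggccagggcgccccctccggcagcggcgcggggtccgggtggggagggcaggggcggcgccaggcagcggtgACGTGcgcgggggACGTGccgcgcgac
Eno2, chr6:124769674-124769923, - strand: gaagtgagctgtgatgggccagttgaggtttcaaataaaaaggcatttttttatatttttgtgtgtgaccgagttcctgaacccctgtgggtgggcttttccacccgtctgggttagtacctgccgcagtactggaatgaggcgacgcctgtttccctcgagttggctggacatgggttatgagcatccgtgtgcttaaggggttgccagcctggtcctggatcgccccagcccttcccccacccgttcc
Pfkl, chr10:78009808-78010057, - strand: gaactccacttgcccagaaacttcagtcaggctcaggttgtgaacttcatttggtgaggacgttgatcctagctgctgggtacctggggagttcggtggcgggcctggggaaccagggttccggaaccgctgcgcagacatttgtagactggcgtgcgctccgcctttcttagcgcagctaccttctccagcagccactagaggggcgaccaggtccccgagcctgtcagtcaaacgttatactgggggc
Txnip, chr3:96557707-96557956, + strand: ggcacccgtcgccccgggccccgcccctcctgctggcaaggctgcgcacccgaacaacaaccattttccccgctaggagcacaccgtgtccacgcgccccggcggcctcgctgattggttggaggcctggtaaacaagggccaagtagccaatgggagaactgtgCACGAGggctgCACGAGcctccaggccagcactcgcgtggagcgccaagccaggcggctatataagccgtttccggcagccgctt
Arrdc4, chr7:68749239-68749488, - strand: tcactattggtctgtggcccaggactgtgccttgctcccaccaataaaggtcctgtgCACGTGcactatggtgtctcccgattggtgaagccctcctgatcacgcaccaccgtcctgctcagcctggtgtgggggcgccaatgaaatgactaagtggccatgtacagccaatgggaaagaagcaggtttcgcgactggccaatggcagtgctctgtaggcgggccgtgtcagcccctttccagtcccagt
The match in Slc2a1 lies 36 to 32 bases before the start. Slc16a3 has a match at 27 to 23 bases and another at 14 to 10 bases before the start, and these windows of Eno2 and Pfkl hold none. The Txnip pair spans 85 to 69 bases before the start, and in Arrdc4 both orientations overlap as CACGTG. On either strand of the 250-base window, ACGTG was found in 14 of 34 promoters of 22 glycolysis genes (41.2%), in 14 of 33 promoters of 22 hypoxia genes (42.4%) and in 5444 of all 32851 promoters (16.6%). The pair in Txnip was searched for on both strands after its values were seen, and it occurred in 1 of the 32851 promoters, that of Txnip. The search used the exact letters of the Txnip boxes, so Txnip had to match. Pairs with other letters were not searched for, in Arrdc4 or elsewhere. These are matches of letters and describe no binding.

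Glycolysis transcripts were lower in the run over nearly the whole pathway, from glucose uptake to lactate export. Of 15760 genes, 917 were lower (5.82%) and 468 were higher (2.97%) in the run, and the median difference over all genes was -0.02 on the log2 scale. Of the 23 glycolysis genes 20 were lower and 1 was higher, with a median difference of -1.12, and these values were what chose the run. The split of all called genes depends on the scaling, because 66.2% of them were lower as analysed and 32.1% of 1627 without scaling, where 1105 were higher and the median of all genes stood at 0.11. With TPM rescaled over nuclear protein-coding genes 43.6% were lower (608 lower, 786 higher). The scaling factors of the run ran from 1.01 to 1.25 and those of the same-strain libraries from 0.921 to 1.17. The glycolysis counts were 18 lower without scaling and 19 with protein-coding genes only.

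Slc2a1, the main glucose transporter of these cells, showed the largest difference of the list. In CC008 it stood at 14.7 and 7.41 TPM in the run and at 54.2 and 53.3 TPM in the same-strain libraries. In CC015 it was 8.15 TPM in the run against 61.6, 69.4 and 57.8 TPM. The other 3 strains gave 12.9 against 82.4 TPM (CC023), 9.64 against 60.1 TPM (CC028) and 11.5 against 75.5 TPM (CC030). All 6 run libraries lay below all 8 same-strain libraries, with a log2 difference of -2.58 ± 0.14 (SE, 6 and 8 libraries), 5.99-fold. They also lay below all 79 libraries outside the comparison and outside CC043, where Slc2a1 ranged from 19.2 to 136.5 TPM around a median of 41.0 TPM.

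Slc2a3, a glucose transporter known from neurons, ranged from 1.20 to 5.97 TPM in the run (median 3.83) and from 6.34 to 22.7 TPM in the same-strain libraries (median 9.56), a log2 difference of -1.75 ± 0.13. Hexokinase 2 (Hk2), which traps glucose as its phosphate, ranged from 7.31 to 14.9 TPM (median 9.21) against 19.8 to 30.1 TPM (median 22.1), a log2 difference of -1.19 ± 0.09. For both genes the groups did not overlap.

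Among the genes of the committed step, the phosphofructokinase subunit Pfkl ranged from 23.0 to 38.6 TPM in the run (median 32.4) and from 82.8 to 111.7 TPM in the same-strain libraries (median 102.2), a log2 difference of -1.65 ± 0.12. Pfkfb3, which makes the activator fructose 2,6-bisphosphate, differed by -1.43 ± 0.07. Pfkfb4, the isoform of that enzyme with more phosphatase activity, was the member that was higher in the run. It ranged from 4.60 to 6.13 TPM (median 5.49) against 2.73 to 3.34 TPM (median 3.04), a log2 difference of 0.76 ± 0.07 with no overlap.

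The abundant enzymes of the lower pathway differed less on the log2 scale but in the same direction. Aldolase (Aldoa) ranged from 499.1 to 624.2 TPM in the run against 1013 to 1140 TPM, a log2 difference of -0.94 ± 0.07. Pgk1 (-0.95 ± 0.14), Gapdh (-0.85 ± 0.16), Ldha (-0.85 ± 0.14), Eno1 (-0.74 ± 0.11) and Pkm (-0.69 ± 0.14) were lower too. In CC008 these differences were smallest, at -0.26 for Gapdh and -0.13 for Pkm. Gapdh and Eno1 have near-identical copies that could share reads, and with the copies added the differences were -0.83 and -0.74.

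Eno2 depended on strain as well as on the run. In CC028 it stood at 3.49 TPM in the run against 6.69 TPM, while in CC015 it was 14.5 TPM against 108, 122 and 98.8 TPM. The log2 difference over strains was -1.88 ± 0.23. At the end of the pathway Slc16a3, the lactate exporter, ranged from 29.2 to 53.8 TPM against 115.3 to 208.6 TPM, 3.99-fold lower without overlap. Ldhb (-0.38 ± 0.12) and the lactate and pyruvate importer Slc16a1 (0.22 ± 0.12) met neither rule. The remaining members Pfkm, Pfkp, Aldoc, Tpi1, Pgam1, Gpi1 and Hk1 differed by -1.31 to -1.05.

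**Figure D1:**
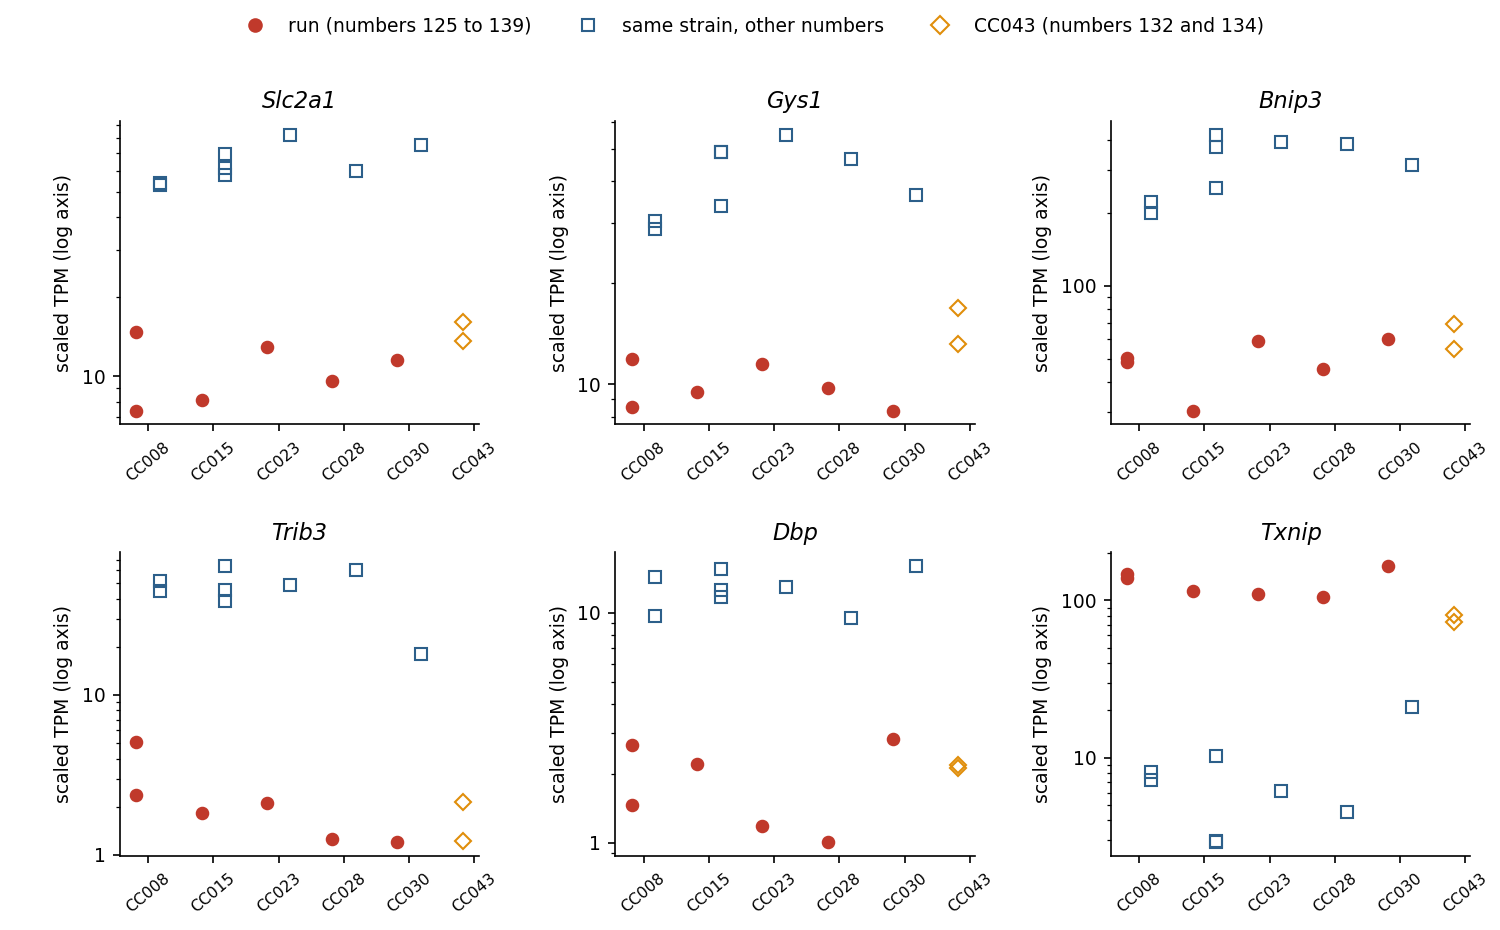
Scaled TPM on log axes of 6 genes in each run library (filled circles), same-strain library (squares) and CC043 library (diamonds), by strain. The run lies below the same-strain libraries of every strain for Slc2a1, Gys1, Bnip3, Trib3 and Dbp, and above them for Txnip, and CC043 lies nearer to the run.

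Genes induced by low oxygen were lower together with glycolysis. Of 30 such genes 25 were lower and 0 were higher, with a median of -1.36 and strain medians from -1.67 to -0.82. Several glycolysis genes are themselves HIF1 targets, so the lists describe related biology. Without the same-strain libraries Farber_165, Farber_167, Farber_169 and Farber_177 the count was 27 of 30, and without CC030 it was 25 of 30. In these sets the rule asks for the same direction only in the strains that remain. Over all 15760 genes, 881 and 1098 were then lower.

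Bnip3, a mitophagy receptor, ranged from 30.4 to 60.4 TPM in the run (median 49.2) and from 199.6 to 420.7 TPM in the same-strain libraries (median 343.9). The groups did not overlap, and the log2 difference was -2.70 ± 0.20, 6.49-fold. The vasodilator peptide adrenomedullin (Adm) differed by -2.61 ± 0.21, the prolyl hydroxylase Egln3, which marks HIF proteins for destruction, by -2.52 ± 0.23, and Ankrd37 by -2.09 ± 0.12. The angiogenic factor Vegfa ranged from 22.4 to 58.5 TPM (median 41.6) against 93.2 to 145.4 TPM (median 120.4), a log2 difference of -1.68 ± 0.10. Pdk1, the kinase that closes pyruvate dehydrogenase, had medians of 16.6 and 69.6 TPM, a log2 difference of -1.78 ± 0.16.

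The exceptions on the hypoxia list were Car9, Plod2, Loxl2, Narf and Insig2. Car9, a carbonic anhydrase, differed by -1.32 ± 0.31 overall but by 0.00 in CC023. The factors that sense oxygen differed less. Of 10 such genes none was lower or higher by the rule, 3 (Hif1a, Arnt and Vhl) were lower without overlap once strain means were removed (10.8% of all genes were), the median was -0.09 as analysed and 0.05 without scaling, and Hif1a itself ranged from 34.4 to 46.3 TPM in the run against 47.4 to 67.4 TPM, a log2 difference of -0.41 ± 0.08.

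Glycogen genes were lower as well, with 8 of 12 lower, none higher and a median of -1.10. Glycogen synthase (Gys1) ranged from 8.33 to 11.8 TPM in the run (median 9.61) against 28.9 to 55.0 TPM (median 41.5), a log2 difference of -1.96 ± 0.14. The glycogen phosphorylase Pygl differed by -1.53 ± 0.15, the targeting subunit Ppp1r3c by -1.48 ± 0.08 and the primer protein Gyg by -1.29 ± 0.13. Genes for storing and for releasing glycogen were thus both lower.

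Txnip had the largest higher difference of all protein-coding genes. In CC008 it stood at 147.1 and 138.8 TPM in the run against 7.23 and 8.10 TPM, and in CC015 at 115 TPM against 2.97, 2.92 and 10.3 TPM. The other strains gave 109 against 6.13 TPM (CC023), 104 against 4.55 TPM (CC028) and 166 against 21.0 TPM (CC030). The log2 difference was 4.07 ± 0.29, 16.7-fold, and the highest of the 79 libraries outside reached 19.1 TPM, so the run stood above every one of them.

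Arrdc4 ranged from 6.15 to 8.92 TPM in the run against 1.03 to 1.69 TPM, a log2 difference of 2.01 ± 0.10. The transcription factor Klf10 ranged from 13.2 to 20.2 TPM against 6.02 to 9.69 TPM, a log2 difference of 1.18 ± 0.06. Those 3 of the 6 glucose-responsive genes were higher and none was lower. The genes for MondoA (Mlxip, 0.31) and Mlx (0.10) and the growth factor Tgfb2 (0.11) met neither rule.

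Genes of amino acid supply and the ATF4 response were lower in the run almost without exception. Of 19 genes 18 were lower and 0 were higher, with a median of -1.29 and strain medians from -1.71 in CC023 to -0.89 in CC030. The pseudokinase Trib3, a feedback gene of ATF4, ranged from 1.21 to 5.06 TPM in the run (median 1.97) against 17.9 to 64.0 TPM (median 46.9). The groups did not overlap, and the log2 difference was -4.09 ± 0.24, 17.0-fold.

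The glutathione-cleaving enzyme Chac1 differed by -3.69 ± 0.40, the transcription factor Ddit3 (CHOP) by -2.84 ± 0.23, the cystathionine gamma-lyase gene Cth by -2.37 ± 0.24 and Mthfd2 of mitochondrial folate metabolism by -2.12 ± 0.21. Atf4 ranged from 58.7 to 90.9 TPM (median 76.8) against 124.6 to 232.5 TPM (median 193.9), a log2 difference of -1.28 ± 0.15. Asparagine synthetase (Asns) ranged from 15.8 to 36.4 TPM against 32.9 to 126.5 TPM (-1.36 ± 0.13), and Phgdh, which opens serine synthesis, from 9.73 to 27.4 TPM against 27.9 to 73.3 TPM (-1.29 ± 0.09). Pycr1, of proline synthesis, was the exception at -0.25 ± 0.12. The low end of the same-strain range was Farber_207 of CC030 for each of Trib3, Chac1, Ddit3, Atf4 and Asns.

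Aminoacyl-tRNA synthetases, which charge tRNAs and include known ATF4 targets, were added as a list after values had been seen. Of 20, 9 were lower and 0 higher, and the 9 became 3 without scaling and 4 with protein-coding genes only. The cysteine enzyme Cars differed by -1.33 ± 0.23, with -0.13 in CC030, and the serine enzyme Sars by -1.20 ± 0.06. Herpud1, an endoplasmic reticulum stress gene, was lower at -1.46 ± 0.21, whereas the chaperone Hspa5 stood at -0.14 ± 0.18. In all, 2 of 14 endoplasmic reticulum genes were lower, with a median of -0.14. Averaged over that list, relative to the mean of the 95 libraries, the run stood at -0.61 to -0.30 (log2). That is ranks 1 to 18 from the lowest of 95. The same-strain libraries stood at -0.50 to 0.19, so the groups overlapped, which they did not on the ATF4 list.

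Against the 79 libraries outside the comparison, 140 of 15760 genes (0.888%) were below all of them in all 6 run libraries and 56 (0.355%) were above all of them. The ATF4 list gave 13 of the former, the glycolysis list 8 (Aldoa, Gpi1, Pfkl, Pfkm, Pgam1, Slc16a3, Slc2a1 and Tpi1), the synthetases 8 and the hypoxia list 6 (Bnip3, Egln1, Egln3, Higd1a, Kdm4b and Stc2). Txnip, Arrdc4, Pfkfb4 and Dlst were among those above. Averaged over the list, relative to the mean of the 95 libraries, glycolysis stood at -0.92 to -0.43 (log2) in the run. The member just inside was Farber_139 of CC023 at -0.43, and 3 of the 79 other libraries, the lowest at -0.48, stood below it without belonging to the run.

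On the ATF4 list the separation was wider. The run stood at -2.01 to -1.55 and CC043 at -1.57 and -1.38, while the lowest same-strain library was -0.93 (Farber_207 of CC030) and the lowest of the 79 was -0.71. For Txnip the run and CC043 were the 8 highest of 95 libraries.

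**Figure D2:**
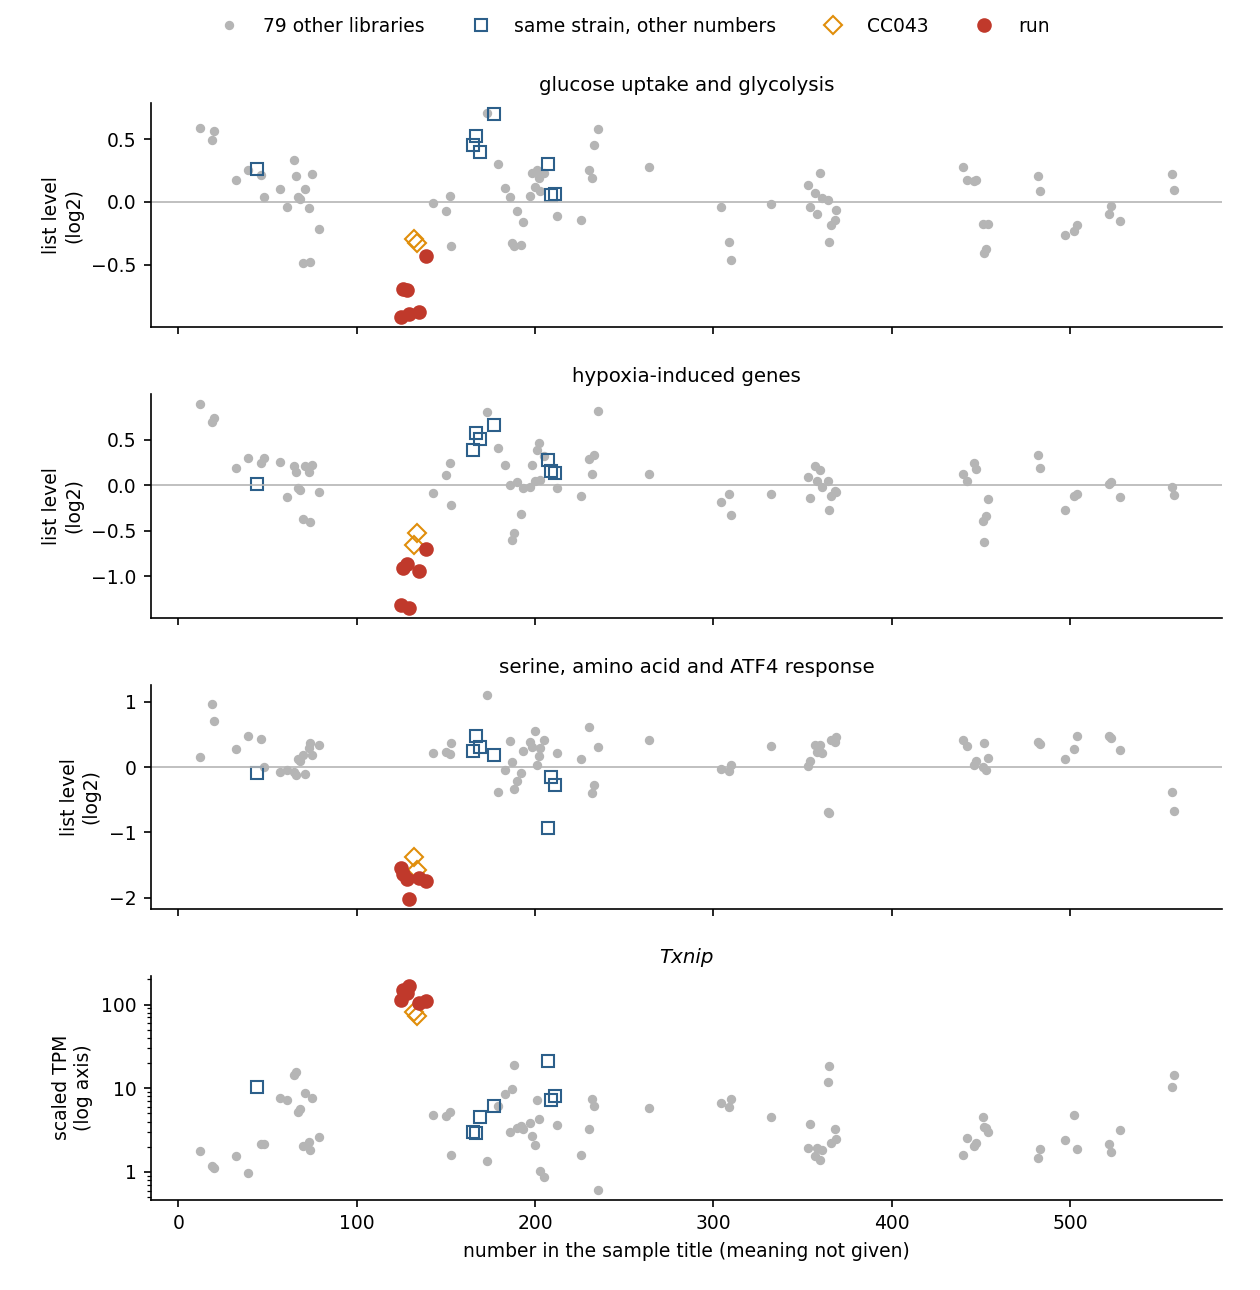
List level (log2, relative to the mean over 95 libraries) of 3 gene lists and scaled TPM of Txnip on a log axis, against the number in the sample title. The run and CC043 fall in one stretch of numbers and hold the 8 lowest ATF4 levels and the 8 highest Txnip values, whereas on the glycolysis list CC043 lies among the other libraries at -0.29 and -0.33.

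CC043 was compared with the unweighted mean of 36 other strains (79 libraries), in a limma fit with Benjamini-Hochberg adjustment over all 15760 genes at 0.05. In CC043 3309 genes were lower (21%) and 3100 were higher (19.7%), against which the following counts are read. At an unadjusted p under 0.05 the counts were 3960 and 3550, and without Farber_132 1785 genes fell and 1720 rose. The error of this fit is the spread between libraries of the same strain, pooled over the 37 strains (44 residual degrees of freedom). Spread between strains is not part of it, so the adjusted p-values do not show whether CC043 differs more than strains usually do. The labels do not say whether the libraries of CC043, or of another strain, came from separate litters or cultures.

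In CC043 12 of 23 glycolysis genes fell and 1 rose, with a median of -0.38, and 11 of those 12 were also lower in the run. Slc2a1 stood at 13.6 and 16.0 TPM, against strain means from 25.2 to 86.2 TPM, and fell by 1.49 on the log2 scale (SE 0.27, limma adjusted p 1.35e-05). Pfkl fell by 0.80 (adjusted p 1.42e-06 by limma), Slc16a3 by 0.77 (0.00328) and Tpi1 by 0.56 (0.000842), and Pfkfb4 rose by 0.32 (0.0244). The count of glycolysis genes that fell was 7 without Farber_132 and 6 without Farber_134.

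Other members did not pass in CC043. Slc2a3 differed by -0.03 (limma adjusted p 0.945), Hk2 by -0.09 (0.730), Eno2 by -0.08 (0.760), Ldha by -0.12 (0.574), Pkm by -0.02 (0.92), Pgk1 by 0.21 (0.282) and Eno1 by 0.18 (0.311). Whether CC043 and the run differ in these genes was not tested.

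**Figure D3:**
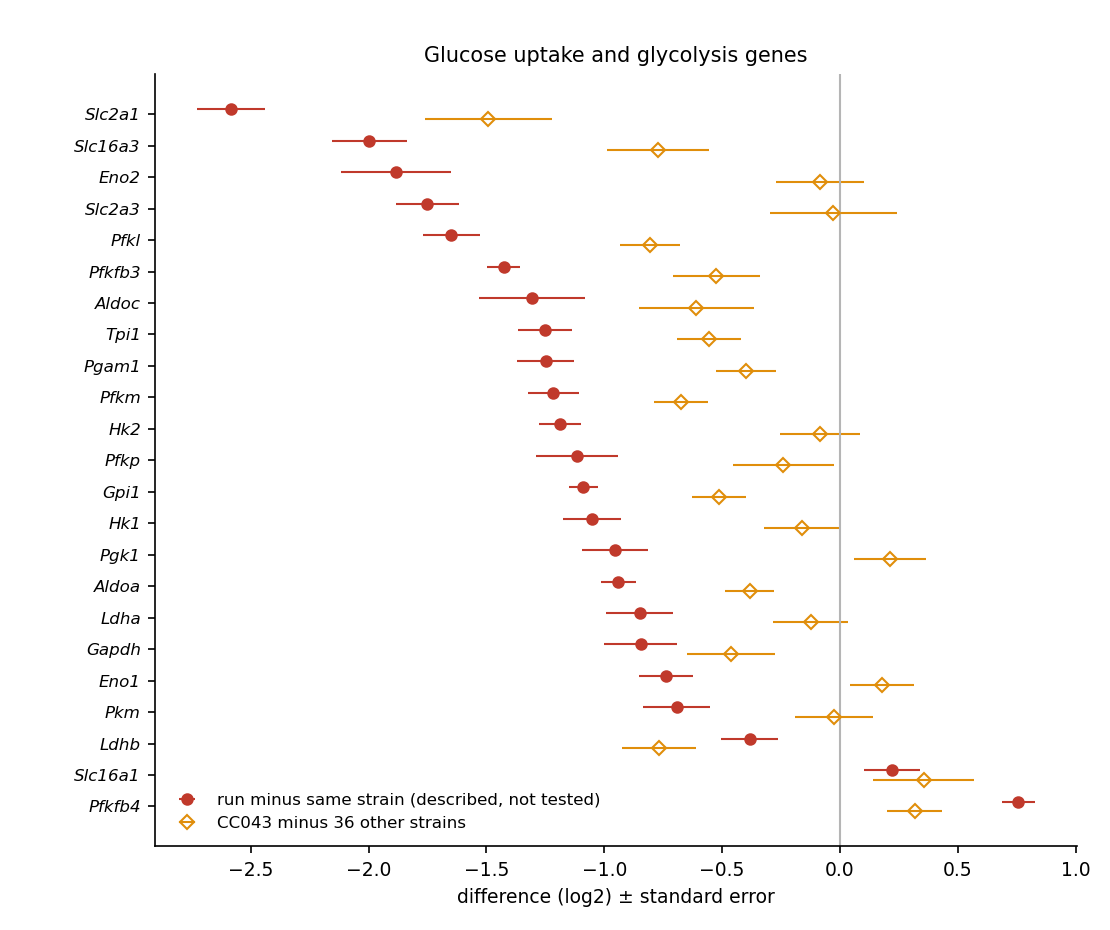
Log2 difference ± standard error of each glycolysis gene, for the run minus the same-strain libraries (filled circles, described without a test) and for CC043 minus 36 other strains (open diamonds). The differences of the run reach -2.58 for Slc2a1 and those of CC043 reach -1.49 for the same gene, with several CC043 values at about 0.

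The ATF4 and glucose-responsive lists stood further apart in CC043 than glycolysis. On the ATF4 list 17 of 19 genes fell and 0 rose, with a median of -1.25. Trib3, at 2.14 and 1.21 TPM against strain means from 19.7 to 106 TPM, fell by 4.88 (SE 0.21, limma adjusted p 8.80e-24). Ddit3 fell by 3.45 (limma adjusted p 5.53e-21) and Atf4 by 1.99 (2.99e-19), while Psat1 at -0.45 just missed the threshold (0.0532).

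Txnip, at 80.9 and 72.8 TPM against strain means from 1.20 to 15.0 TPM, rose by 4.26 (SE 0.30, limma adjusted p 5.41e-16). Over the alternatives, including either CC043 library left out, its adjusted p lay between 5.46e-17 and 2.25e-10. Arrdc4 rose by 1.77 (limma adjusted p 2.47e-09) and Klf10 by 1.26 (1.58e-15). Of the 6 genes 4 rose, Tgfb2 being the other.

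Of 30 hypoxia genes 15 fell in CC043 and 0 rose, Bnip3 by 1.75 (limma adjusted p 1.78e-07) and Vegfa by 1.04 (2.97e-05), and of 12 glycogen genes 8 fell and 1 rose, Gys1 by 0.64 (0.0202). Over all genes, 586 of the 917 genes lower in the run fell in CC043 (63.9% of the former, 17.7% of the 3309) and 10 rose. Of the 468 genes higher in the run 360 rose (76.9% of the former, 11.6% of the 3100) and 6 fell. The same-strain libraries enter neither side of the CC043 comparison. CC043 also differed on lists of which few genes were called in the run. Of 15 interferon genes 11 fell (73.3%, median -1.43), of 22 collagen genes 10 and of 6 tendon markers 4. In the run 0, 1 and 0 of these were lower by the rule. The counts are not alike, because the CC043 test asks for no fold size and the rule asks for 1.5-fold in all 5 strains. The collagen medians were -0.25 in CC043 and -0.16 in the run, and the tendon medians -0.77 and -0.02. The interferon median of the run was -0.14. Of 19 cholesterol synthesis genes 7 rose in CC043, while 1 was higher in the run. These counts of the run depended on which same-strain libraries entered. Without Farber_165, Farber_167, Farber_169 and Farber_177, 8 of the 15 interferon genes were lower in the run (median -0.84). On that set 6 of the 19 cholesterol genes were higher (median 0.49). There the rule covers only the strains left, and 881 of all 15760 genes were lower and 490 higher.

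The next numbers in strains with a library elsewhere are Farber_143 and Farber_153. Farber_143 against Farber_61 of CC001, and Farber_153 against Farber_70 of CC010, differed over the glycolysis list by a median of 0.00 and 0.10 (log2), over the ATF4 list by 0.25 and 0.22 and over the hypoxia list by 0.04 and 0.18. Over the clock list the pairs differed by -0.09 and -0.38, the latter near the smallest strain median of the run, -0.42 in CC028. Txnip stood at 4.74 and 7.14 TPM in the CC001 pair and at 1.61 and 2.06 TPM in the CC010 pair. With 1 library on each side these pairs have no replicate check.

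Downstream and beside glycolysis the run differed in few genes. Of 7 pentose phosphate genes the NADPH-making dehydrogenases were higher, G6pdx at 17.4 to 31.6 TPM against 10.2 to 15.6 TPM (0.77 ± 0.06) and Pgd at a median of 39.4 against one of 18.0 TPM (1.05 ± 0.09). Of 21 genes of pyruvate entry and the TCA cycle Dlst, a subunit of the 2-oxoglutarate dehydrogenase complex, was higher at 37.8 to 54.5 TPM against 24.2 to 28.2 TPM (0.81 ± 0.06), and 0 were lower. Of 37 nuclear genes of oxidative phosphorylation none was lower or higher, with a median of -0.12 as analysed and 0.06 without scaling. G6pdx, Pgd and Dlst also rose in CC043 (limma adjusted p 6.72e-05, 0.000706 and 9.13e-15).

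Of 13 mitochondrially encoded mRNAs 4 were higher in the run, mt-Nd1 among them at 0.68 ± 0.09, and the list median was 0.49. In CC043 4 of the 13 fell (30.8%, where 21% of all genes did) and 0 rose (where 19.7% did), with a median of -0.11. Without the same-strain libraries Farber_165 to Farber_177 none was higher. Among 18 genes of fatty acid oxidation 1, Cpt1a, the carnitine transferase that admits fatty acids to mitochondria, was higher at 0.67. That is 5.56% of the list, where 2.97% of all genes were higher. None was higher without Farber_165 to Farber_177, and Cpt1a did not pass in CC043 (0.13, limma adjusted p 0.565).

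Genes of the redox response under NRF2 were higher in 5 of 11 cases, namely Txnrd1, Gclm, Gclc, Nqo1 and Srxn1, and 0 were lower. Without scaling the count was 8 of 11 and with protein-coding genes only 7. Thioredoxin reductase 1 (Txnrd1), which recycles the thioredoxin that Txnip binds, ranged from 14.4 to 36.5 TPM in the run against 7.23 to 20.9 TPM. The ranges overlapped because strains differ in level, and within strains all 5 differences lay between 0.84 and 1.15, giving 0.98 ± 0.06. In CC043 Txnrd1 rose by 1.27 (limma adjusted p 2.27e-11). Of 11 heat shock genes 3 were higher, Hspa8 (0.97 ± 0.24), Hsph1 (0.94 ± 0.14) and Bag3 (0.61), and Hspa8 was 0.07 in CC030. Without scaling 6 were higher, and with protein-coding genes only 4. In CC043 7 of the 11 rose and 0 fell.

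Several clock genes were lower in the run. Of 13 clock genes 7 were lower and 0 higher as analysed, 3 and 1 without scaling, and 4 and 1 with protein-coding genes only. Dbp, an output transcription factor, ranged from 1.01 to 2.83 TPM in the run (median 1.83) against 9.46 to 16.0 TPM (median 12.8), a log2 difference of -2.49 ± 0.15 with no overlap. Per3 differed by -1.09 ± 0.09, and the rule also called Tef, Nr1d2, Per1, Nr1d1 and Per2. Clock itself was 0.54 ± 0.07 and did not reach 1.5-fold. In CC043 7 genes fell, among them Dbp by 1.85 (limma adjusted p 2.45e-08), and Clock rose by 0.55 (1.97e-08). The time of day of RNA extraction is not in the labels, and its part was not tested.

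Ribosome assembly factors, a list added after values had been seen, were higher for 10 of 20 genes and lower for 0. The RNA helicase Ddx21 ranged from 19.2 to 33.1 TPM in the run against 9.08 to 12.8 TPM (1.14 ± 0.10), and Heatr1 from 6.55 to 9.27 TPM against 3.01 to 4.43 TPM (1.09 ± 0.08). The ranges of both genes did not overlap. In CC043 17 of the 20 rose.

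**Figure D4:**
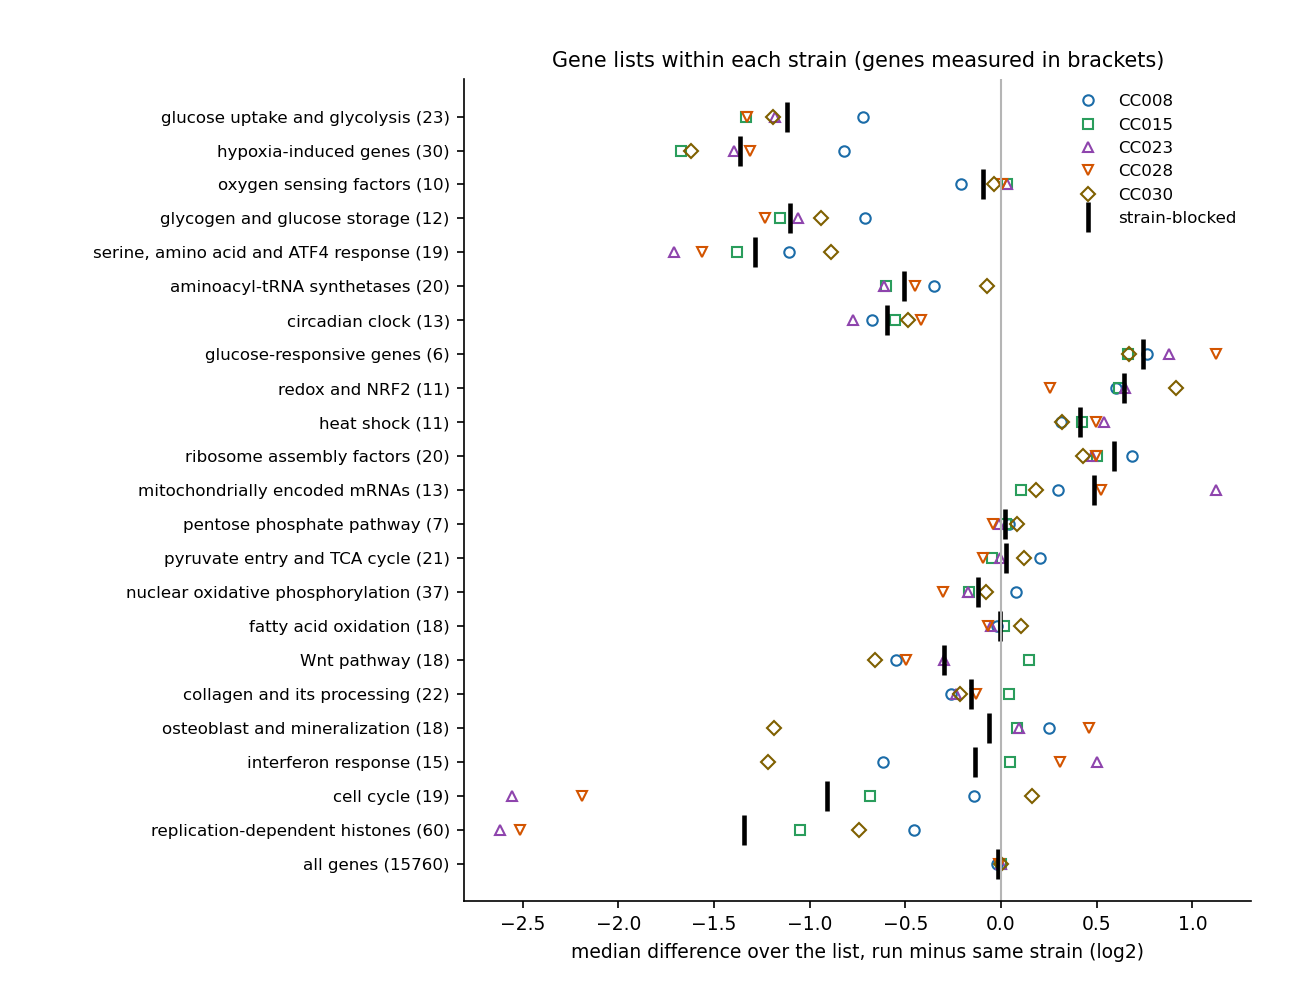
Median log2 difference of each gene list, run minus same-strain libraries, within each of the 5 strains (open symbols) and with strain as a block (bars). Glycolysis, hypoxia, glycogen, ATF4 and clock lists lie below 0 in all 5 strains, the glucose-responsive, redox, heat shock and ribosome assembly lists lie above 0, and the cell cycle, histone and osteoblast lists spread widely between strains.

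Proliferation genes depended on which same-strain libraries entered. Of 19 cell cycle genes 3 were lower (Ccnb2, Bub1 and Tyms), with a median of -0.91 that ranged from -2.55 in CC023 to 0.16 in CC030. Without the same-strain libraries Farber_165, Farber_167, Farber_169 and Farber_177, which removes CC023 and CC028, 0 were lower and the median was 0.07. Without CC030 10 of 19 were lower, with a median of -1.11. Of 60 replication-dependent histone genes, an added list with near-identical members whose reads may be split, 50 were lower with a median of -1.34. Without the same-strain libraries Farber_165 to Farber_177, 13 were lower with a median of -0.42. Sequencing Farber_129 again changed the histone genes by a median of 0.893 (absolute log2), and 71.7% of them by 1.5-fold. Over all genes these values were 0.102 and 4.22%. On that reduced set, without Farber_165 to Farber_177, glycolysis gave 17 of 23 lower (-0.98), the ATF4 list 18 of 19 (-1.06) and the glycogen list 7 of 12 (-0.88). There the rule asks for the same direction only in CC008, CC015 and CC030, and 881 of 15760 genes were lower. Without CC030 the rule covers the strains left, and 1098 were lower.

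Osteoblast genes differed in both directions, and none of the 18 was below 0.1 TPM in all 14 libraries of the comparison. By the rule 3 were lower (Alpl, Ifitm5 and Pth1r) and 1 was higher (Slc20a1), with a median of -0.06 that became 0.11 without scaling. None was lower without scaling, with protein-coding genes only, or without Farber_165, Farber_167, Farber_169 and Farber_177, and 2 were lower without CC030. The alkaline phosphatase gene Alpl ranged from 19.7 to 222.1 TPM in the run against 69.8 to 371.4 TPM (-0.70 ± 0.27), overlapping. The matrix genes Col1a1 (0.00 ± 0.25) and Bglap, osteocalcin (0.05 ± 0.35), met neither rule. The strain medians ran from -1.19 in CC030 to 0.46 in CC028, and Farber_129 of CC030 had the lowest summed level of the osteoblast list of all 95 libraries, 548.4 TPM, beside the highest macrophage sum, 5979 TPM.

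Some secreted regulators of bone were lower. Of 18 Wnt pathway genes 5 were lower and 0 higher, namely the antagonists Dkk1 (-1.74 ± 0.43), Dkk2 and Wif1 and the receptors Lrp5 and Fzd2. The osteocyte antagonist sclerostin (Sost) ranged from 0.048 to 4.74 TPM in the run against 0.390 to 10.8 TPM (-1.83 ± 0.34), and Ptprz1 was the other of 7 osteocyte genes that was lower. Both Dkk1 and Sost fell in CC043, by 3.04 and 4.15 (limma adjusted p 5.92e-05 and 2.68e-05). Dkk1 stood there at 0.69 and 2.16 TPM, where the lowest mean of another strain was 1.41 TPM. Sost stood at 0.012 and 0.336 TPM, where the lowest was 0.036 TPM. Of the 18 Wnt genes 7 fell and 5 rose in CC043. Of the 7 osteocyte genes 3 fell and 1, Dmp1, rose, by 2.40 (limma adjusted p 0.00015). Over all genes 21% fell and 19.7% rose. The BMP antagonist Grem1 was lower at -1.35.

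Markers of other cell types did not follow one direction. Of 15 macrophage markers 0 were lower or higher, with a median of 0.33, and their summed level ranged from 634.5 to 5979 TPM in the run against 256.9 to 3696 TPM. Of 11 smooth muscle markers Myl9 was lower and Des higher, and the list median was -0.53. By strain that median was negative except in CC008 (0.062). Without the same-strain libraries Farber_165 to Farber_177 it was -0.103. The smooth muscle sum ranged from 564.6 to 890.1 TPM in the run (median 760) against 703 to 2611 TPM (median 1419). None of these markers was below 0.1 TPM in all 14 libraries. The part of these cells in the differences above was not tested.

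The sex-linked transcripts Xist and Ddx3y show that the groups were not matched for sex. Both CC008 run libraries had Xist above 1 TPM and both CC008 same-strain libraries had Ddx3y above it. In CC023 the run library had Ddx3y and the same-strain library Xist, and of the 3 CC015 same-strain libraries 1 had Xist while the run library had Ddx3y. CC028 (Xist on both sides) and CC030 (Ddx3y on both sides) were matched, and there the glycolysis medians were -1.32 and -1.19 and the ATF4 medians -1.56 and -0.89. The CC043 comparison was not matched for sex either. Its 2 CC043 libraries had Xist at 9.38 and 9.58 TPM and Ddx3y at 0.013 to 0.027 TPM. The 79 libraries on its other side had medians of 0.145 TPM for Xist and 25.4 TPM for Ddx3y. Sex was not in that fit, and its part was not tested.

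Over all genes the run did not form one cluster. By Pearson's r of log2 values across genes, the nearest library of Farber_125 was Farber_44 (0.973) and that of Farber_129 was Farber_207 (0.972), both of the same strain. The CC008 run libraries were nearest to each other (0.975), Farber_139 was nearest to Farber_128 (0.971) and Farber_135 to Farber_139 (0.969), all in the run. Sequencing Farber_129 again changed the glycolysis genes by a median of 0.044 (absolute log2) and none by 1.5-fold, against 0.102 and 4.22% over all genes. Histone genes changed more, by a median of 0.893 and 71.7% of them by 1.5-fold.

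Outside the lists other than the added ones, the 12 protein-coding genes with the largest lower differences held 4 histone genes, which the added histone list also counts, and Adm2, a peptide related to adrenomedullin. Of the histone list, 71.7% changed by 1.5-fold when Farber_129 was sequenced again. Adm2 ranged from 0.171 to 0.561 TPM in the run against 5.05 to 14.1 TPM (-3.53 ± 0.15). The vascular peptide Apln differed by -2.73 ± 0.15, the mitochondrial PEP carboxykinase Pck2 by -2.06 ± 0.09 and the glycine transporter Slc6a9 by -1.91 ± 0.12, each without overlap. Rtkn2 (-2.96), Prelid2 (-2.45), Crabp1 (-2.09) and Mgarp (-1.88) were the others besides the histone genes. Of these 12 genes 10 fell in CC043, and of the 8 that are no histone genes 7 did. Crabp1, a retinoic acid binding protein, was the exception that rose there, by 1.73 (limma adjusted p 0.00211), with the CC043 libraries far apart at 83.3 and 20.01 TPM.

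The largest higher differences outside the lists were those of Crabp2, another retinoic acid binding protein, which ranged from 11.4 to 37.9 TPM in the run against 4.75 to 14.7 TPM (1.61 ± 0.14), and of Fam20c, the kinase of secreted phosphoproteins (1.43 ± 0.38, with 0.09 in CC030). Arsi, Sema7a, the glutamine synthetase gene Glul (1.26 ± 0.13), Tnfrsf12a, Errfi1, the hyaluronan synthase gene Has2 (1.21 ± 0.18), Snx11, Cbr3, Pkdcc and Ddx21, which the added list of ribosome assembly factors holds too, followed. Of these 12 genes 11 rose in CC043 and Fam20c, at 0.68, did not pass (limma adjusted p 0.0629).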

How the data were processed

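Total RNA from 96 samples (95 libraries, 42 strains) was measured by sequencing. The authors deposited one table of TPM per transcript, in which each column sums to 1000000; per the submitters' processing notes Bowtie and the mm9 build were used, and no source used here names the program that computed TPM. Of 94545 transcripts 91225 were matched by identifier to GENCODE genes and summed into 37945 genes, which held a median of 98.2% of TPM. Columns were scaled by a trimmed mean of log ratios (30% of ratios and 5% of levels trimmed, genes at a mean of 1 TPM or more). Genes with at least 0.5 TPM in 2 libraries were kept (15760), and log2(TPM + 0.5) was fitted, so differences of low genes are understated. The run was described with strain as a block, and CC043 was tested, in limma 3.58.1 (R 4.3.3) with Benjamini-Hochberg adjustment at 0.05 and 44 residual degrees of freedom. The scripts were tested on simulated data. Near-identical copies were found with blastn 2.17.0, and promoters came from RefSeq (GRCm38.p6, 22 of 23 glycolysis, 22 of 30 hypoxia and 5 of 6 glucose-responsive genes matched).

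The members and the gene lists were chosen with earlier results of these data known. Named genes are all glycolysis genes, up to 4 per other list by size, the 12 largest in each direction outside the lists with a mean of 5 TPM or more, and cell type markers; other genes named were chosen after their values were seen. Alternatives were the pseudocount, the low-value filter, the scaling, the weighting of strains, each sequencing of Farber_129 and leaving out each library.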

Additional observations from a re-analysis of the deposited data

Results flagged for a closer look

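The averaged level of each of 26 gene lists, cell type marker lists not included, was screened for a library standing apart within the run (6 libraries) and within the same-strain libraries (8), in 52 groups in all, of which chance marks about 1 in 20. All 4 cases belonged to strain CC030. In the run, Farber_129 was highest for the pentose phosphate pathway at 0.514 (log2, relative to the mean of 95 libraries), with the next library at 0.23, and for heat shock at 0.842, with the next at 0.432. Among the same-strain libraries, Farber_207 was highest for the glucose-responsive genes at 0.231, with the next at -0.108, and for the interferon response at 2.11, with the next at 0.416. Its glucose-responsive level was still below the 1.04 of the lowest run library. Without CC030, 20 of 23 glycolysis genes and 18 of 19 genes of the ATF4 list were lower in the run, and 1098 of all 15760 genes were.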

How the results depend on the processing

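Depth is unknown, 3 strains rest on 1 library a side, and strain differences from CC043 carry its strain. Without scaling 32.1% of the 1627 called genes were lower (66.2% of 1385 as analysed), and 756 were lower without overlap (1708 as analysed). With nuclear protein-coding genes only 43.6% of 1394 were lower, 1026 were lower without overlap, and 2460 were higher without overlap (1602 as analysed). Without the same-strain libraries Farber_165 to Farber_177, an alternative chosen after seeing the data, 3070 genes were lower and 2642 higher without overlap, where fewer libraries have to be apart, and the cell cycle median turned to 0.074; otherwise the cause was not tested. With each library left out in turn, 1374 to 1668 genes were called, 63.3% to 67.1% of them lower. Without overlap 1787 to 2504 were lower and 1661 to 2307 higher. The glycolysis median was -1.19 to -1.08 and the hypoxia median -1.44 to -1.29. Leaving out Farber_125 of CC015, or a library of CC023, CC028 or CC030, removed its strain, and the rule then covered the strains left. The count of 1668 is that without CC030. With either CC043 library left out, 1785 to 2308 genes fell, 1720 to 2377 rose, and 6 to 7 glycolysis, 12 to 13 hypoxia and 15 to 16 ATF4 genes fell, as did 393 to 459 of the genes lower in the run, while 298 to 302 of those higher in it rose; the remaining library is assumed to vary like the other strains. Of 4923 values of 189 named genes under the alternatives, 37 moved by more than the reference spread and 0 reversed. Of 1013 list medians 18 moved and 1 reversed. A reversal was counted only for genes called by the rule and for lists with a median of at least 1.5-fold. Sign changes of smaller differences were not counted as reversals. The collagen median, for example, was -0.16 as analysed and 0.03 without scaling. The fit over all libraries gives the same differences by construction. No paired analysis was possible because the labels give no replicate numbers and those used here follow accession order.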

Other observations

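Among noncoding RNAs, chosen after their values were seen, the imprinted H19 ranged from 641.1 to 1443 TPM in the run (median 713.7) against 1045 to 2645 TPM (median 1621), a log2 difference of -0.94 ± 0.09 with the same direction in all 5 strains. Miat ranged from 3.44 to 7.74 TPM against 1.36 to 4.48 TPM (1.15 ± 0.18). F630028O10Rik, annotated as antisense on chromosome X, ranged from 3.03 to 31.8 TPM against 0.384 to 5.35 TPM (2.17 ± 0.27), and the sources used here do not say whether reads were assigned by strand. The interleukin 33 receptor gene Il1rl1 was the member of the inflammatory list that was higher, by 1.95 ± 0.22, while Il6 stood at 0.22.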
